A study of Danio rerio with 16 samples.

Results

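The miRNAs described here are 5 zebrafish miRNAs known from the eye and from sensory hair cells, out of 245 zebrafish miRNAs on the array. They are dre-miR-96, dre-miR-182 and dre-miR-183, whose genes lie together in a single cluster, and dre-miR-184 and dre-miR-204, written below without the species prefix. They were found by their names in the scanner files, and the choice was made with earlier results of these data known. All 5 were detected and were among the 178 zebrafish miRNAs that could be tested. Total RNA came from embryos of the wild-type TL strain that were kept from 4 hours post-fertilization (hpf) in valproic acid (VPA), a drug against seizures and a histone deacetylase inhibitor, or in ethanol as the vehicle. There were 4 groups of 4 arrays each: VPA at 96 hpf, vehicle at 96 hpf, VPA at 48 hpf and vehicle at 48 hpf, 16 arrays in all. The labels give neither a dose nor the number of embryos in a sample, and they do not say whether replicates were separate clutches, so that p-values measure the spread between these samples, which may be technical.

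A miRNA is a short RNA that guides a silencing complex to messenger RNAs and lowers their translation and stability. In vertebrates the miR-183 cluster is expressed in ciliated sensory cells, among them photoreceptors and the hair cells of the ear and lateral line, and in mice and humans changes in the seed of miR-96 cause progressive hearing loss. The 3 cluster members have similar seeds and are made from a shared primary transcript. miR-184 is abundant in the lens and cornea, and miR-204 is a miRNA of the retinal pigment epithelium, lens and ciliary body that lies within genes of the TRPM channel family.

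The probe sequences are shown because they set what each value can measure. Every probe is DNA and complementary to its miRNA, and the longest probe of each, for the members also the brightest, is given 5′ to 3′. Capitals mark the longest stretch shared by the probes of miR-182 and miR-183, the longest stretch shared by the zebrafish and pufferfish probes of miR-184, and the letter in which the zebrafish miR-204 and pufferfish miR-204b probes differ.
miR-96: agcaaaaatgtgctagtgccaa
miR-182: tgtgagTTCTACCAttgc
miR-183: cagtgaaTTCTACCAgtg
miR-184: gCCCTTATCAGTTCTCC
fru-miR-184: CCCTTATCAGTTCTCCg
miR-204: aggcataggatGacaaaggg
tni-miR-204b: aggcataggatAacaaagg
miR-182*: tagttggcaagtctagaacc

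The probes of miR-182 and miR-183 have 18 letters each and share 8 in a row, while that of miR-96 has 22 letters and shares no more than 4 in a row with either. The files place probes on danRer6 (Zv8), with that of miR-183 at chr4:14884996-14885012, that of miR-96 at chr4:14885149-14885169 and that of miR-182 at chr4:14886082-14886098, and its opposite arm miR-182* at chr4:14886123-14886141. The starts of miR-183 and miR-182 are thus 1086 bases apart, with miR-96 between them at 153 bases from miR-183. The miR-184 probe is placed at 2 loci, chr7:30486413-30486429 and chr18:26309119-26309135, and the miR-204 probe also at 2, chr5:23943939-23943958 and chr7:29591757-29591776, so that each value is the sum over the copies. The files do not settle the strand. In the RefSeq table of a later assembly (GRCz12tu) the 3 cluster genes overlap no other gene and lie beside nrf1 and ube2h, and the 3 miR-204 genes overlap trpm3, trpm1a and trpm1b. The copies of miR-204 and miR-184 on chromosome 7 are each other's nearest miRNA genes in that table.

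Each value below is a normalized log2 intensity: the mean log2 signal over up to 20 spots of a member's brightest probe, after division by the 75th percentile of the array. The brightest probe of every member was well above background on all 16 arrays, and the median SE from its spots ran from 0.03 for miR-204 to 0.05 for miR-184, beside a SD between the arrays of a group that ran from 0.02 (miR-204, vehicle at 48 hpf) to 0.63 (miR-183, VPA at 96 hpf). The 75th percentile spanned 1249 to 6179 on VPA arrays and 1956 to 2406 on vehicle arrays at 96 hpf, and 507 to 2356 on VPA arrays and 897 to 1220 on vehicle arrays at 48 hpf. The number of arrays limits the precision. Muscle, skin and brain miRNAs (miR-1, miR-206, miR-133a, miR-203a, miR-203b, miR-205, miR-124 and miR-9) were detected on all 16 arrays and the liver miRNA miR-122 on 14, so that the samples hold many tissues. In such samples fewer cells of a type and less RNA per cell cannot be told apart.

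On each slide vehicle arrays fill the first column and VPA arrays the second, so that exposure and column cannot be told apart at either age. The first comparison set VPA against vehicle embryos at 48 hpf. Of the cluster, miR-182 and miR-96 fell in VPA embryos, by 1.62-fold and 1.66-fold, and miR-183 was lower by a similar amount without passing the test. miR-184 and miR-204 did not pass. The count was 2 of 5 lower and 0 higher, where 29.2% of the 178 tested miRNAs passed at this time, 12.9% lower and 16.3% higher. That split depended on the scaling: of all tested miRNAs 29 were higher and 23 lower here, but 9 and 22 with quantile normalization and 12 and 32 with the percentile over probes detected on every array.

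miR-182 measured 0.19, 0.16, -0.07 and 0.00 in VPA embryos, against 0.91, 0.78, 0.72 and 0.68 in vehicle embryos. The highest VPA array lay well below the lowest vehicle array. The log2 change was -0.70 ± 0.07 (SE, n = 4 arrays a group, limma adjusted p = 6.40e-06).
miR-96 measured 0.33, 0.50, 0.32 and 0.41 in VPA embryos, against 1.15, 1.18, 1.02 and 1.13 in vehicle embryos. These groups too were apart, by more than the range of either. The log2 change was -0.73 ± 0.11 (limma adjusted p = 0.000251). It kept its sign under every alternative tried, as did that of miR-182, and both calls were lost only in the unscaled value table, at -1.14 for miR-182 and -1.17 for miR-96 (limma adjusted p = 0.924 for both), where 3 VPA arrays were dimmer and 1 brighter than every vehicle array and the median over all tested miRNAs was -0.31.

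miR-183 measured -0.99, -0.66, -1.05 and -1.61 in VPA embryos, against -0.27, -0.58, -0.44 and -0.42 in vehicle embryos. The groups did not overlap, but the nearest arrays, VPA replicate 2 and vehicle replicate 2, were close. The log2 change of -0.65 ± 0.25 did not pass (limma adjusted p = 0.0655). Its 95% interval ran from -1.19 to -0.11 and holds the changes of both other cluster members. It was -0.47 without VPA at 48 hpf replicate 4 and passed at -0.79 without replicate 2. It also passed without VPA at 96 hpf replicate 1 (adjusted p = 0.0445) or replicate 4 (adjusted p = 0.00879), which enter only through the shared estimate of the spread.

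The opposite arm of miR-182 was read by probes of its own. miR-182* measured -3.18, -2.99, -3.24 and -3.34 in VPA embryos, against -2.21, -2.52, -2.26 and -2.23 in vehicle embryos. It was well above background on 1 of 4 VPA arrays and on 4 of 4 vehicle arrays, so that the VPA group is at or near background and no size of change is given for it. Counted from the lowest change, miR-96, miR-182 and miR-183 stood in places 4, 5 and 7 of the 178 tested.

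miR-184 measured -0.77, -0.74, -0.70 and -0.76 in VPA embryos, against -0.86, -1.06, -1.002 and -0.76 in vehicle embryos. The VPA arrays lay at and above the upper end of the vehicle range, overlapping it by little, and the log2 change of 0.18 ± 0.07 did not pass (limma adjusted p = 0.0740).
miR-204 measured 2.99, 2.96, 2.84 and 2.93 in VPA embryos, against 2.73, 2.79, 2.77 and 2.78 in vehicle embryos. Its groups were apart by less than 0.1, and its log2 change of 0.16 ± 0.06 did not pass either (limma adjusted p = 0.0682). The 95% intervals ran from 0.02 to 0.34 for miR-184 and from 0.02 to 0.30 for miR-204, and so lay above 0. The sign of both changes turned in the unscaled table, and that of miR-204 with normexp background correction. Without VPA at 96 hpf replicate 4, which enters here through the shared estimate of the spread, all 5 members passed at 48 hpf, with adjusted p = 0.0303 for miR-184 and 0.0239 for miR-204. For 4 of the 5 members, all but miR-184, the arrays of both groups were fully apart, as was so for 41% of the tested miRNAs.

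**Figure D1:**
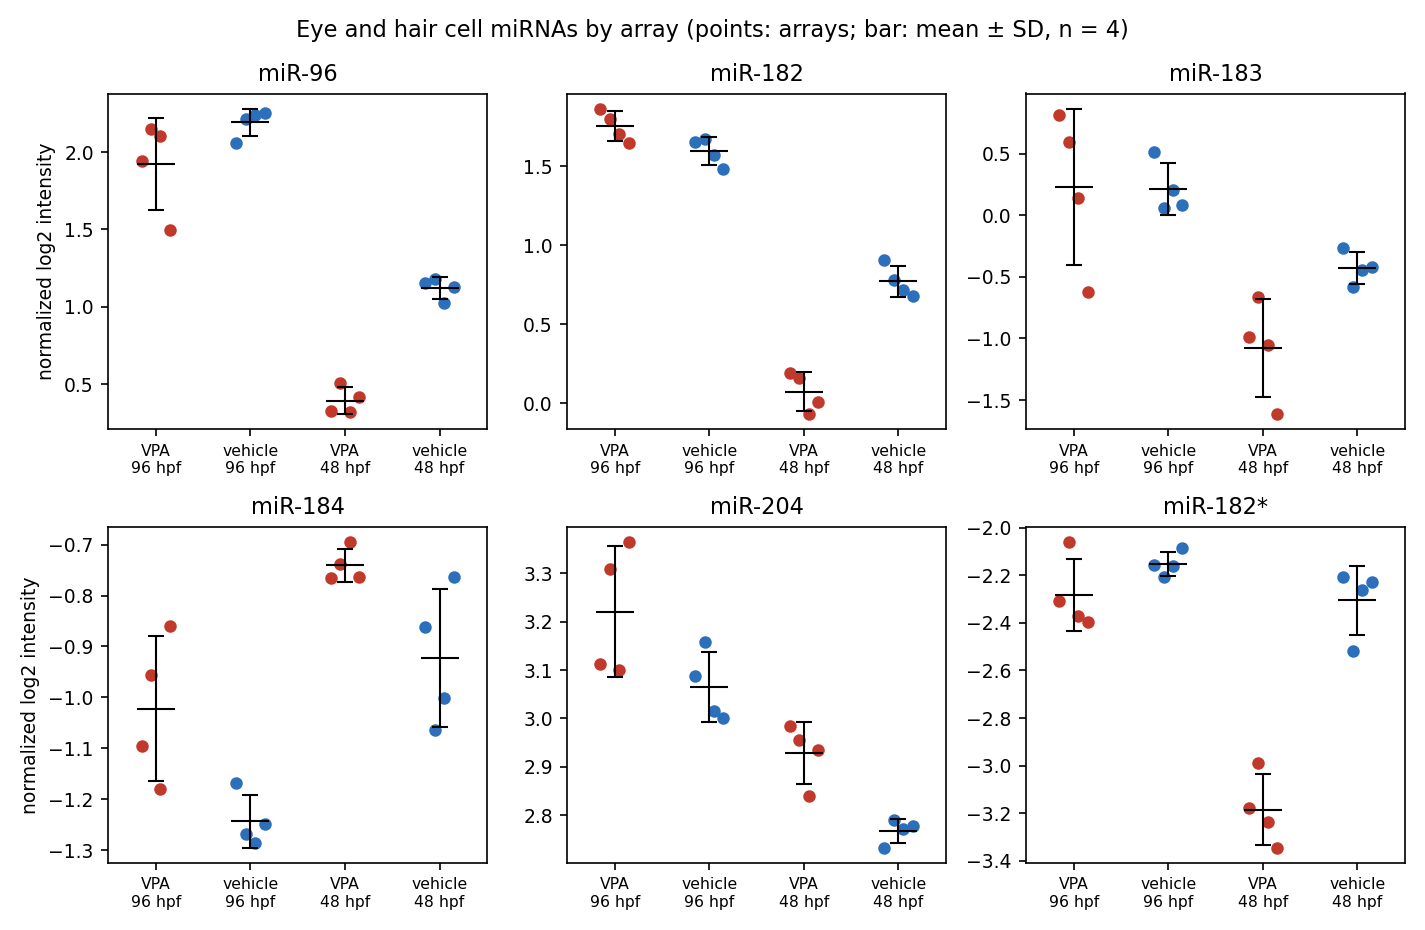
Normalized log2 intensity of the 5 members and of miR-182* on each array, by group, with the axis fitted to each miRNA. Points are arrays, and the bar with whiskers is the mean ± SD of 4 arrays. At 48 hpf the VPA arrays of miR-96, miR-182, miR-183 and miR-182* all lie below every vehicle array, while at 96 hpf the groups of all 6 overlap. miR-182* was well above background on 1 of the 4 VPA arrays at 48 hpf.

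The same comparison at 96 hpf gave small differences. In the fit without pairing only miR-184 passed, 1.17-fold higher in VPA embryos. With a replicate block, which pairs arrays by number, miR-182 passed and miR-184 did not. Of the cluster members only miR-96 had a mean below that of vehicle embryos, without passing. Without pairing the count was 1 of 5 higher and 0 lower, where 32.6% of the tested miRNAs passed, 14% higher and 18.5% lower. Here 25 of all tested miRNAs were higher and 33 lower, but 37 and 21 with quantile normalization and 32 and 24 with the scanner software's gene signal. The arrays of VPA and vehicle embryos overlapped for all 5 members, as they did for all but 31.5% of the tested miRNAs.

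miR-184 measured -1.10, -0.96, -1.18 and -0.86 in VPA embryos, against -1.17, -1.27, -1.29 and -1.25 in vehicle embryos. All 4 VPA arrays exceeded the vehicle mean, and VPA replicate 3 lay just within the vehicle range. The log2 change was 0.22 ± 0.07 (limma adjusted p = 0.0320). The call was not firm. It was lost without VPA replicate 2 (0.20) or 4 (0.17), without vehicle replicate 2 (0.21), 3 (0.21) or 4 (0.22), and in the fit of the 96 hpf arrays alone (adjusted p = 0.0763). At this age replicate numbers, which are also the slide rows, were taken to pair the arrays. With the replicate block the call was lost as well (limma adjusted p = 0.0573), although VPA was above vehicle in 4 of 4 pairs.

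miR-182 measured 1.87, 1.80, 1.71 and 1.65 in VPA embryos, against 1.66, 1.68, 1.57 and 1.48 in vehicle embryos. The 3 highest arrays were those of VPA embryos, and VPA replicate 4 lay within the vehicle range. Its log2 change of 0.16 ± 0.07 did not pass (limma adjusted p = 0.115), but did with the replicate block (adjusted p = 0.0294), and each VPA array was above the vehicle array of its number.
miR-96 measured 1.95, 2.15, 2.10 and 1.496 in VPA embryos, against 2.06, 2.21, 2.24 and 2.25 in vehicle embryos. VPA replicate 4 lay far below the other arrays while the rest overlapped, and the log2 change of -0.27 ± 0.11 did not pass (limma adjusted p = 0.0763). It was -0.13 without that array, and it passed without VPA replicate 2 (-0.34) or 3 (-0.33). VPA was below vehicle in 4 of 4 pairs, and with the replicate block it did not pass (limma adjusted p = 0.0831).

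miR-183 measured 0.81, 0.60, 0.14 and -0.62 in VPA embryos, against 0.51, 0.06, 0.21 and 0.08 in vehicle embryos. Its VPA arrays spread on both sides of the vehicle range, with a SD of 0.63 in VPA and 0.21 in vehicle embryos, where the median SD over all tested miRNAs was 0.16 and 0.07. The log2 change of 0.02 ± 0.25 did not pass (limma adjusted p = 0.961), with a 95% interval from -0.52 to 0.55 that leaves either direction possible. Leaving out single arrays gave -0.18 to 0.30, and the sign turned 4 times.
miR-204 measured 3.11, 3.31, 3.10 and 3.36 in VPA embryos, against 3.09, 3.16, 3.02 and 3.001 in vehicle embryos. The VPA arrays lay within or above the vehicle range, and the log2 change of 0.16 ± 0.06 did not pass (limma adjusted p = 0.0763). On VPA replicate 4, 75% of the miR-204 spots were saturated, so that the value there is a lower bound, and the change was 0.11 without it. It passed without VPA replicate 1 (0.19) or 3 (0.20). VPA was above vehicle in 4 of 4 pairs, and with the replicate block it did not pass (limma adjusted p = 0.0881).

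The exposure effects at both ages were then set against each other, the effect at 96 hpf minus that at 48 hpf. For miR-182 they differed by 0.86 ± 0.10 (SE, limma adjusted p = 5.77e-05), the highest difference of the 178 tested miRNAs. Of the 5 members 1 passed and it was higher, where 12.9% of tested miRNAs passed, 3.93% higher and 8.99% lower. Those 7 higher and 16 lower became 12 and 5 with quantile normalization and 15 and 8 with the gene signal.
The other cluster members pointed the same way without passing. miR-96 differed by 0.46 ± 0.16 (limma adjusted p = 0.0697), in place 6 from the top, and miR-183 by 0.67 ± 0.36 (limma adjusted p = 0.227), in place 4. Both passed without VPA at 96 hpf replicate 4, at 0.60 for miR-96 and 0.95 for miR-183. For miR-184 the difference was 0.04, with a 95% interval from -0.18 to 0.26, and for miR-204 it was near 0, with an interval from -0.20 to 0.19. An effect of the size seen for miR-182 lies outside both intervals. Each age was on its own slide and each treatment in its own column. A column effect that differs between slides therefore cannot be told apart from a difference of the exposure effects. Age and length of exposure also go together.

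**Figure D2:**
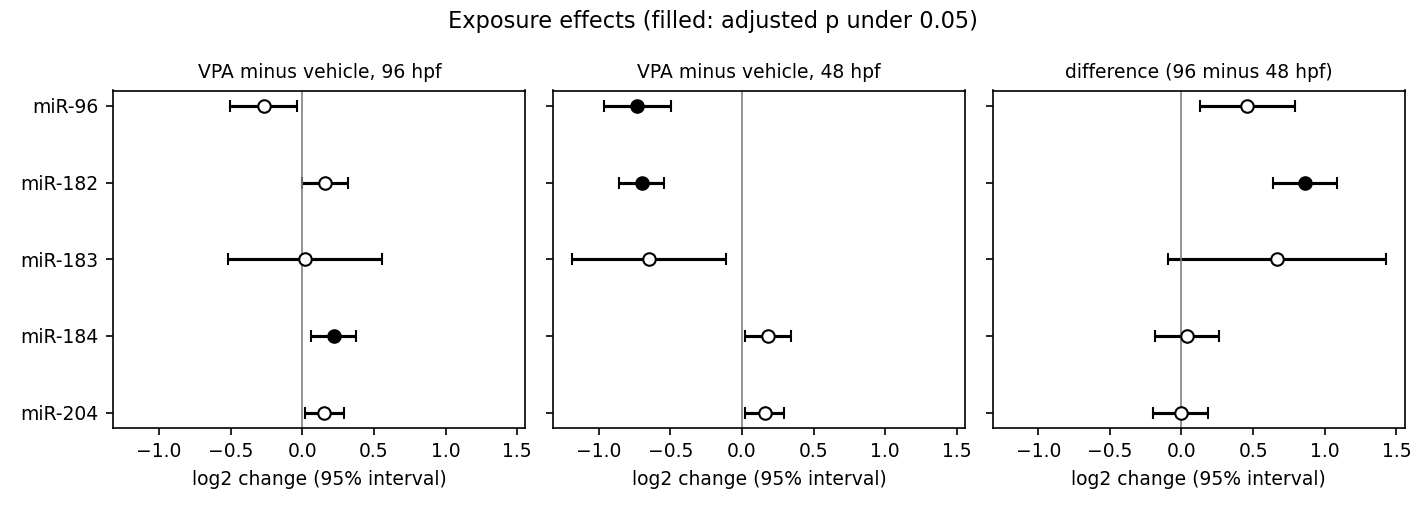
Log2 change between VPA and vehicle embryos at 96 hpf and at 48 hpf, and the difference of these effects. The 95% interval is from the limma fit without pairing. Filled points passed at an adjusted p under 0.05. At 48 hpf the intervals of miR-96, miR-182 and miR-183 lie below 0 and those of miR-184 and miR-204 above 0. At 96 hpf only the interval of miR-183 holds 0. The filled point of the difference is miR-182, and the interval of miR-96 there lies above 0 as well. These intervals are not adjusted for the number of miRNAs tested.

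**Figure D3:**
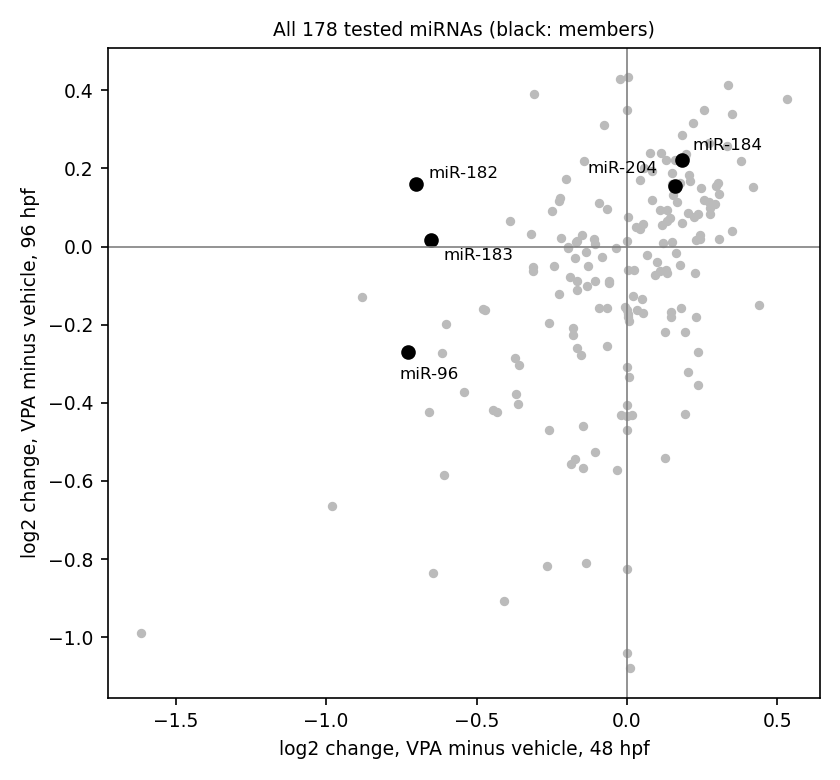
Log2 change between VPA and vehicle embryos at 48 hpf (horizontal) and at 96 hpf (vertical) for all 178 tested miRNAs, with the members in black. miR-182 lies at -0.70 and 0.16, the only member with opposite signs of over 0.1 at the 2 ages, although its 96 hpf change did not pass. miR-184 and miR-204 lie near each other at the upper right.

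With age, 4 members rose and miR-184 fell, in VPA and in vehicle embryos alike. In VPA embryos 77.5% of tested miRNAs passed between 96 and 48 hpf, 41.6% higher and 36% lower, and in vehicle embryos 80.3% passed, 46.1% higher and 34.3% lower. The arrays of both ages were apart for all 5 members in each treatment, as for 70.8% of tested miRNAs in VPA and 82.6% in vehicle embryos. All 48 hpf arrays lie on one slide and all 96 hpf arrays on another, so that age and slide cannot be told apart.
miR-182 averaged 1.76 ± 0.10 (SD, n = 4) at 96 hpf and 0.07 ± 0.12 at 48 hpf in VPA embryos, a 3.22-fold rise (log2 change 1.69 ± 0.07, SE, limma adjusted p = 8.59e-12). In vehicle embryos it averaged 1.60 ± 0.09 at 96 hpf and 0.77 ± 0.10 at 48 hpf, a 1.77-fold rise (0.83 ± 0.07, limma adjusted p = 5.81e-08). The groups stood, from high to low, in the order VPA and vehicle at 96 hpf, vehicle at 48 hpf and VPA at 48 hpf, and only the top pair overlapped.

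miR-96 averaged 1.92 ± 0.30 at 96 hpf and 0.39 ± 0.09 at 48 hpf in VPA embryos, a 2.89-fold rise (limma adjusted p = 4.56e-09), and 2.19 ± 0.09 and 1.12 ± 0.07 in vehicle embryos, a 2.10-fold rise (limma adjusted p = 3.02e-07). Its order was vehicle and VPA at 96 hpf, then vehicle and VPA at 48 hpf, and again only the top pair overlapped.
miR-183 averaged 0.23 ± 0.63 at 96 hpf and -1.08 ± 0.40 at 48 hpf in VPA embryos, a 2.48-fold rise (limma adjusted p = 0.000201). In vehicle embryos it averaged 0.22 ± 0.21 at 96 hpf and -0.43 ± 0.13 at 48 hpf, a 1.56-fold rise (limma adjusted p = 0.0278). That call in vehicle embryos was lost without vehicle at 96 hpf replicate 1 (0.55) and without vehicle at 48 hpf replicate 2 (0.59) or 3 (0.64). The VPA arrays at 96 hpf overlapped both vehicle groups. The opposite arm miR-182*, at or near background on VPA arrays at 48 hpf, changed by 0.15 in vehicle embryos and did not pass (limma adjusted p = 0.138).

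miR-204 rose with age in both treatments, by 0.29 in VPA and 0.30 in vehicle embryos. It averaged 3.22 ± 0.13 at 96 hpf and 2.93 ± 0.06 at 48 hpf in VPA embryos (log2 change 0.29 ± 0.06, limma adjusted p = 0.000602), and 3.07 ± 0.07 and 2.77 ± 0.02 in vehicle embryos (0.30 ± 0.06, limma adjusted p = 0.000497). Its order was VPA and vehicle at 96 hpf, which overlapped, then VPA and vehicle at 48 hpf, which were apart.
miR-184 averaged -1.02 ± 0.14 at 96 hpf and -0.74 ± 0.03 at 48 hpf in VPA embryos (log2 change -0.28 ± 0.07, limma adjusted p = 0.00253), and -1.24 ± 0.05 and -0.92 ± 0.14 in vehicle embryos (-0.32 ± 0.07, limma adjusted p = 0.000947). From high to low its order was VPA and vehicle at 48 hpf, then VPA and vehicle at 96 hpf, and each neighbouring pair overlapped. The fall of miR-184 with age is relative to the scaling: without scaling, where the median of all tested miRNAs rose by 1.501 in VPA and 1.0 in vehicle embryos, miR-184 changed by 1.32 and 0.61. With the scanner software's own gene signal it was -0.01 and -0.12 and did not pass. The falls were also smaller in its shorter probe, at -0.15 in VPA and -0.21 in vehicle embryos. In the pufferfish probe fru-miR-184 they were -0.14 and -0.19.

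Each member has a shorter probe as well. The shorter probe of miR-182 changed by -0.73 at 48 hpf, that of miR-96 by -0.68 and that of miR-183 by -0.67, and those of miR-184 and miR-204 by 0.18 and 0.24. At 96 hpf the shorter probes changed by 0.08, -0.25, 0.00 (miR-183), 0.24 and 0.22 in that order of members. The shorter miR-183 probe was detected on 14 of 16 arrays. On VPA replicates 2 and 3 at 48 hpf only 47.4% of its spots were well above background, so that its change at that age is uncertain in size. The pufferfish probe fru-miR-184, which shares 16 of its 17 letters in a row with the zebrafish probe, was well above background on all 16 arrays and changed by 0.17 at 96 hpf and 0.12 at 48 hpf. The pufferfish probe tni-miR-204b, which differs from the zebrafish miR-204 probe by G12A (counted from 1 at the probe's 5′ end, zebrafish letter first) and is 1 letter shorter, was well above background on 0 of 16 arrays. All samples were zebrafish, so that the signal of the fru-miR-184 probe came from zebrafish RNA. Which miRNA that probe bound was not tested, nor was whether the other similar probes bind each other's miRNA.

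Array brightness moved most with miR-183. Over the deviations of the 16 arrays from their group means its Pearson correlation with brightness was -0.88, in place 2 from the lowest of 178. For miR-182 and miR-96 it was -0.42 and -0.40, in places 52 and 57. For miR-184 and miR-204 it was 0.14 and 0.25, and the median over all tested miRNAs was -0.06. On the VPA arrays at 96 hpf the 75th percentile was 1249, 1465, 3415 and 6179 in the order of replicates 1 to 4, and miR-183 was 0.81, 0.60, 0.14 and -0.62, so that the brighter the array, the lower the value. miR-182 followed the same order over a narrower range (1.87, 1.80, 1.71 and 1.65), and miR-96 was lowest on the brightest array. Among these VPA arrays miR-184 and miR-204 were highest on the brightest array (-0.86 and 3.36). The part of brightness in the results was not tested beyond the fits below. At 48 hpf the brightest VPA array, replicate 4 at 2356, also held the lowest miR-183, while the other 3 had 730, 522 and 507. miR-182 and miR-96 were as low on that bright array (0.00 and 0.41) as on the 3 VPA arrays dimmer than every vehicle array.
With the log2 75th percentile as a covariate miR-183 passed at 48 hpf, at -0.85 ± 0.13 (limma adjusted p = 0.000212), as did its difference between ages, at 0.97 ± 0.19 (limma adjusted p = 0.00246), and that of miR-96, at 0.52 (limma adjusted p = 0.0281). Without the 3 VPA arrays that were brighter than every vehicle array of their age (an alternative added with the brightness known), all 5 members passed at 48 hpf, with miR-183 at -0.47 (limma adjusted p = 0.00665). At 96 hpf 3 passed, all higher, with miR-184, miR-182 at 0.24 (limma adjusted p = 0.0394) and miR-183 at 0.49 (limma adjusted p = 0.0112), and 3 passed in the difference between ages. That fit left only VPA replicates 1 and 2 at 96 hpf, which held the highest VPA values of miR-182 and miR-183. At both ages every VPA array left was dimmer than every vehicle array, so that exposure and brightness cannot be told apart there.

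**Figure D4:**
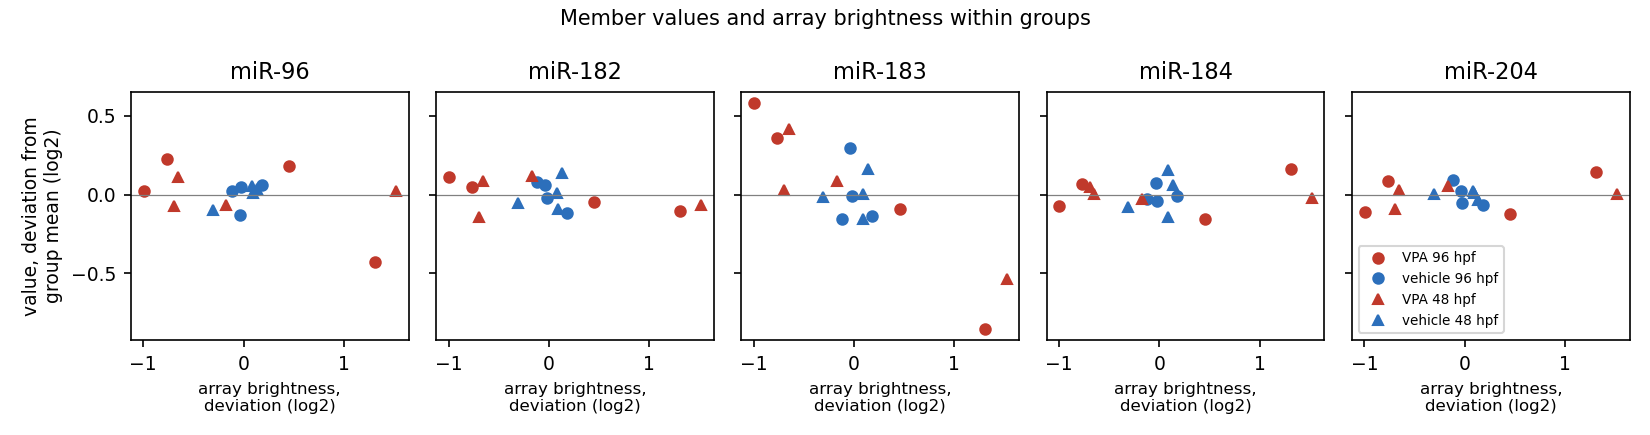
Deviation of each member from its group mean (vertical, log2) against the deviation of the array's log2 75th percentile from its group mean (horizontal), for 16 arrays. Red is VPA and blue vehicle, circles are 96 hpf and triangles 48 hpf. For miR-183 the brightest VPA arrays at both ages are the lowest points, and for miR-96 the brightest VPA array at 96 hpf is the lowest, and miR-182 falls with brightness over a narrower range on the VPA arrays at 96 hpf.

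Other miRNAs of these organs went in several directions. Of 9 tested miRNAs of retina and brain, 4 were lower in VPA embryos at 96 hpf and 2 at 48 hpf, and 0 were higher at either age. Over all tested miRNAs 18.5% were lower and 14% higher at 96 hpf, and 12.9% lower and 16.3% higher at 48 hpf. At 96 hpf these were miR-212 at -1.04 (limma adjusted p = 4.17e-10) and miR-132 at -0.81 (limma adjusted p = 8.35e-08), which neuronal activity induces in mammals, and the neural and endocrine miR-7a at -0.42 and miR-7b at -0.17. At 48 hpf they were the neuronal miR-124 at -0.47 (limma adjusted p = 0.000293) and miR-7a at -0.44 (limma adjusted p = 0.0144). The p of miR-212 at 96 hpf rests on a spread shared with the 48 hpf arrays. Its change there was exactly 0, so that this p may be too small. The median change of that list was -0.17 at 96 hpf and -0.13 at 48 hpf, beside -0.03 and 0.00 over all tested miRNAs.
In the difference between ages 2 of the 9 passed, both lower, miR-212 and miR-132, beside 12.9% of all tested miRNAs that passed and 8.99% that were lower. The change of miR-212 at 48 hpf was exactly 0, with no SE, as when all arrays of both groups lie at the floor. It therefore cannot be read as a lack of effect at that age. Its difference of -1.04 is thus the 96 hpf change alone and does not show that the effects differ between ages. Of 6 tested miRNAs of sensory epithelia, all of the miR-200 family, 0 were higher and 2 lower at 96 hpf, with miR-429b at -0.26 and miR-141 at -0.19. At 48 hpf 2 were higher, miR-429 at 0.35 and miR-200b at 0.24, and miR-429b was lower at -0.17. Counts of 1 or 2 in 6 lie near the shares over all tested miRNAs given above. The difference of the effects passed for miR-429 at -0.31 (limma adjusted p = 0.00934).

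The non-member miRNAs whose values were most like each member's over the 16 arrays were found by Pearson correlation, given as a description since the 4 groups shape every such value. They were miR-135c (r = 0.985), miR-724 (0.980) and miR-7a (0.978) for miR-96, and miR-338 (0.958), miR-140 (0.953) and miR-724 (0.949) for miR-182. For miR-183 they were miR-218b (0.898), miR-125a (0.891) and miR-190b (0.877). miR-184 was most like miR-130b (0.921), miR-216b (0.904) and miR-16b (0.889), and miR-204 most like miR-456 (0.916), miR-23b (0.892) and miR-455 (0.887). All 8 of those named for the cluster members were lower in VPA embryos at 48 hpf and passed, beside 12.9% lower over all tested miRNAs. They were picked for likeness over these same arrays, so that a fall at 48 hpf was favoured by the choice. Changes included miR-140 at -0.24, miR-338 at -0.31, miR-125a at -0.61 and miR-135c at -0.66. Of the 4 VPA arrays at that age miR-190b was well above background on 0 and miR-724 on 1. No size of change at 48 hpf is given for these. At 96 hpf 4 of the 8 passed, all lower, beside 18.5% lower over all tested miRNAs. They were miR-190b at -0.99, miR-724 at -0.66, miR-135c and miR-7a at -0.42. A fall at 48 hpf nearly as large as that of miR-182 and miR-96 was also measured outside the cluster, in miR-135c and miR-125a. These were well above background on all 4 VPA arrays at 48 hpf. The falls of miR-190b and miR-724, which have no size here, may be larger.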

How the data were processed

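Total RNA of 16 zebrafish samples was labelled with Cy3 and hybridised to 1-colour Agilent miRNA arrays, 1 array a sample. The deposited intensity of a spot is its mean signal less a spatial surface fitted within the array, with local background correction switched off and no scaling between arrays, per the file headers (Feature Extraction version 9.5.3.1, and 9.5 per the submitters' processing notes). The authors' deposited values repeat it in rounded form, 100% of them to within 1%. Scanner flags in the deposited files mark detection, saturation and outliers.

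Without control spots, signals were scaled to the 75th percentile over the spots of all probes, of which 56.0% were detected on average, then floored at 0.0648. They were put on the log2 scale and averaged over spots. Outlier spots (3.32% to 8.07% an array) were left out of this average, of the setting of the floor and of detection, but not of the percentile. A miRNA was represented by its brightest probe and needed most of that probe's spots detected on 3 or more arrays of some group, which 178 did. limma 3.58.1 (lmFit and eBayes, R 4.3.3) fitted 4 group means, with two-sided tests, Benjamini-Hochberg adjustment over all 178 and a threshold of 0.05. The fit was tested on simulated data, and figures were drawn with matplotlib 3.10.9 (Python 3.11.15).

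Vehicle arrays fill the first and VPA arrays the second column of each slide, and column and treatment therefore cannot be told apart. Arrays of the same number and age share a slide row, so that pairing by number and by row cannot be told apart either. Deviations of same-numbered arrays correlated at 0.286, 0.285, 0.273 and 0.244 for the 96 hpf pairs, all over 0.1. For the 48 hpf pairs they correlated at 0.0977, -0.184, 0.324 and -0.151, so numbers were taken to pair arrays at 96 hpf only. The main fit used no pairing, and the replicate block was fitted at both ages.

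Named were the 5 members, names sharing their number, the 3 most similar miRNAs of each, and up to 4 called miRNAs from each of 2 lists. The members and lists were chosen with earlier results of these data known. Alternatives changed background correction, scaling, floor, filter, probe rule, replicate block, covariate, weights, the arrays fitted and single arrays left out.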

Additional observations from a re-analysis of the deposited data

Results flagged for a closer look

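The effect of VPA on miR-182 differed between the ages, by 0.86 on the log2 scale (96 minus 48 hpf, limma adjusted p = 5.77e-05). Since age goes with slide and treatment with column, a column effect that differs between slides cannot be told apart from it. All 4 VPA arrays lay above the vehicle mean at 96 hpf and all 4 below it at 48 hpf. At 96 hpf, however, the groups overlapped and the change of 0.16 did not pass without pairing (limma adjusted p = 0.115). It passed with the replicate block, and in the shorter probe it was 0.08. A reversal of direction is therefore not settled. By Dixon's criterion 0 of the 20 combinations of a member and a group held an array that stood apart from the other 3.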

How the results depend on the processing

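Of 795 values of single members under alternatives, 707 kept their direction and side of the threshold. Many of these left out an array outside the comparison, which cannot move the change and alters only the shared spread. At 48 hpf 2 members passed, and miR-182 and miR-96 kept their direction in every alternative run and their call in all but the unscaled table. The count at 48 hpf was 0 in the unscaled table, 4 with the mean of all probes or the 48 hpf arrays alone, and 5 with array weights or without the brightest VPA arrays. At 96 hpf, where 1 passed, it was 0 with normexp, with the percentile taken over probes detected on every array, in the unscaled table or in the 96 hpf arrays alone, 2 with quantile normalization or the gene signal, and 3 with array weights or without the brightest VPA arrays. For the difference of the effects, where 1 passed, it was 0 in the unscaled table, 2 with the percentile over detected probes or the gene signal, and 3 with the brightness covariate, array weights or without the brightest VPA arrays. Between ages in vehicle embryos it was 2 with normexp, against 5. Leaving out single arrays gave 0 to 3 members at 96 hpf, 2 to 5 at 48 hpf, 1 to 3 for the difference, 5 between ages in VPA and 4 to 5 in vehicle embryos. Where 0 members passed, those at an unadjusted p under 0.05 in limma numbered 1 with normexp, 2 with the percentile over detected probes, 0 unscaled and 1 in the 96 hpf arrays alone at 96 hpf, and unscaled 3 at 48 hpf and 1 in the difference. The cause was not tested for any of these.

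Some values changed sign. With normexp miR-204 was -0.0854 at 48 hpf and its difference of effects 0.31, and that of miR-184 was -0.18. That of miR-204, near 0 at first, was 0.0498 with the percentile over detected probes, 0.0130 with quantile normalization, 0.0543 with the gene signal and 0.66 unscaled. In the unscaled table miR-184 was -0.25 and miR-204 -0.28 at 48 hpf, and miR-184 changed with age by 1.32 in VPA and 0.61 in vehicle embryos. Leaving out single arrays gave -0.18 to 0.30 for miR-183 at 96 hpf, and differences of effects of -0.0158 to 0.0907 for miR-184 and -0.0527 to 0.0354 for miR-204.

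The replicate block within each age ended the call of miR-184 at 96 hpf (adjusted p = 0.0573 in limma) and gave one to miR-182 (adjusted p = 0.0294). At 48 hpf, where numbers were not taken to pair the arrays, it brought the limma adjusted p of miR-183 to 0.0482. Over all tested miRNAs limma called 58 at 96 hpf, 52 at 48 hpf and 23 in the difference. With normexp it called 0 at 96 hpf (19 at an unadjusted p under 0.05), 5 at 48 hpf and 2 in the difference, and unscaled 0 in each (0, 9 and 1 unadjusted). Array weights called 84 at 48 hpf and 56 in the difference, leaving out VPA at 96 hpf replicate 4 called 84 and 44, and leaving out the brightest VPA arrays 81 and 52. The fit of the 96 hpf arrays alone called 37 and quantile normalization 31 at 48 hpf. The brightness covariate called 36 in the difference. Keeping only miRNAs detected on all 16 arrays, which tests fewer, called 31 at 96 hpf and 7 in the difference. The signal of miR-182* lay near background in VPA embryos at 48 hpf, and 4 arrays a group limit every value.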
